A study of Mus musculus with 12 samples.

Results

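Mouse induced pluripotent stem cells made with 6 factors (iPS6F) were compared with embryonic stem cells (ESC) to describe the expression differences that remained between them. The comparison used every array titled iPS6F or ESC, 3 of each, which is 6 of the 12 arrays in the series. The iPS6F cells were labelled male and had been induced with Oct4 (Pou5f1), Sox2, Klf4, c-myc (Myc), Brg1 (Smarca4) and Baf155 (Smarcc1). The ESC were of the OG2 mouse line and were labelled a mix of female and male cells. The other groups, used here only as side values, were iPS4F, male cells induced without Brg1 and Baf155, and MEF, male OG2 embryonic fibroblasts. The labels do not state how the factors were delivered, whether an iPS group was 1 clone, its passage number or the use of feeder cells. The labels number the arrays of a group 1 to 3 without saying that they came from separate cultures, so the p-values describe the spread of these samples, part or all of which may be technical.

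Pluripotent stem cells are held in their state by a network of transcription factors around Pou5f1, Sox2 and Nanog. Leukaemia inhibitory factor, BMP and Wnt signals favour self-renewal, while FGF acting through the kinase ERK prepares the cells for differentiation. Reprogramming turns a mesenchymal fibroblast into an epithelial cell with this network switched on. Brg1 is the ATPase, and Baf155 a scaffold subunit, of BAF, a large complex that spends ATP to slide or evict nucleosomes.

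Both groups carried the pluripotent profile. Nanog, a core member of the network, read 9.46, 9.64 and 9.47 on the ESC arrays and 9.58, 9.32 and 9.30 on the iPS6F arrays (log2 normalized intensity, the scale of every level below). Its log2 difference of -0.12 ± 0.15 (SE) did not pass the test. Of the other pluripotent markers, Dppa5a (0.21) and Utf1 (0.24) did not pass either, and Pou5f1 was higher by 1.41. Zfp42, Esrrb and Tdgf1 were detected on every ESC and iPS6F array but were lower in iPS6F (-0.80, -0.38 and -0.55). The calls of Zfp42, Esrrb and Tdgf1 ended with the median scaling described below. The fibroblast collagens Col1a1, Col1a2 and Col3a1, with Postn and Dcn, were not detected on any of the 6 arrays. The summed linear level of 8 fibroblast markers was 154 to 165 in ESC, 180 to 199.8 in iPS6F and 39138 to 43434 in MEF. Within that sum Thy1, Lox and Bgn were higher in iPS6F, by 0.41, 0.65 and 0.60 on the log2 scale. The sum of the macrophage markers was 73.6 to 87.2 across both groups. Undetected probes count in both sums (Col1a1, for example, at a log2 level of 4.22 in ESC), so much of each sum in ESC and iPS6F is background. In bulk samples a smaller number of cells and a lower RNA content per cell cannot be told apart. Mean raw intensity on the 6 arrays ran from 139 on ESC array 2, which also had the fewest detected probes (14107 of 45281), to 209. The arrays of a group correlated at 0.990 to 0.994, and the number of arrays limits the precision of every value. The Y-linked gene Eif2s3y was not detected on any ESC array, although the label names male cells as part of the mix. Xist, the RNA that silences an X chromosome, was detected in neither ESC nor iPS6F, and stood at 7.86 ± 0.24 (SD, n = 3) in MEF, which are labelled male.

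Of 10096 genes tested with limma, 1799 were higher in iPS6F (17.8%) and 2826 were lower (28.0%), so 45.8% passed the adjusted p threshold of 0.05. At least 2-fold, 333 genes were higher (3.30%) and 390 were lower (3.86%), which makes 723 genes, or 7.16%. These 2-fold counts depended on the processing, with 607 higher and 156 lower under median scaling, 106 and 98 without background correction, 904 and 1214 in the authors' log2 table, and 197 higher with a detection p under 0.01 on all 12 arrays. The balance between higher and lower genes depended on the scaling. Scaling each array to its median, where the main values are quantile-normalized, left 76.5% of calls on the higher side, against 38.9%, and the median of all genes moved from -0.07 to 0.09. When each median-scaled array was also centred on its genes' median, 44.4% of calls were on the higher side, with 1666 genes higher and 2090 lower. Of the 723 genes at least 2-fold apart, 703 were called the same way with median scaling. Counting every kept probe in place of the brightest of each gene, 3860 probes were higher (22.0%) and 3971 were lower (22.6%). The 3 arrays of one group did not overlap the 3 of the other for 52.6% of all genes, so a lack of overlap alone is common in this comparison.

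The 6 reprogramming factors did not move together. Pou5f1 read 10.48, 10.30 and 10.23 in ESC and 11.78, 11.63 and 11.82 in iPS6F. Every iPS6F array lay above every ESC array, and the gene was higher by 1.41 ± 0.11 (adjusted p = 9.2e-08), with its other probe higher by 1.07. Sox2, the partner of Pou5f1 on DNA, read 7.13, 6.41 and 6.85 in ESC and 8.57, 8.47 and 8.40 in iPS6F. Its brighter probe was higher by 1.69 ± 0.16 and its other probe was lower by 0.39 on the log2 scale (-0.39), so the probes of Sox2 gave opposite calls. Klf4 was lower by its brightest probe (-0.80 ± 0.15), a call that ended with median scaling, and its other probes differed by -0.25 and 0.39. Myc was at the floor of the array in both groups, detected on no array, with a difference of 0.04 ± 0.10. Smarca4 fell from 6.57, 6.67 and 6.77 in ESC to 5.95, 6.20 and 6.01 in iPS6F, and this difference of -0.62 ± 0.11 also lost its call with median scaling. Smarcc1 was higher by 0.63 ± 0.17 (adjusted p = 0.00586), with its other probe at 0.43 and not past the threshold. It is not known here which transcripts, native or delivered, these probes bind, so the levels do not measure delivery.

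The 12 genes that were highest in iPS6F relative to ESC spanned adhesion, transcription and metabolism. Ipp, which encodes an actin-binding kelch protein, stood at 5.37, 5.55 and 5.81 in ESC and at 10.05, 10.12 and 10.17 in iPS6F. The groups were far apart, with a difference of 4.53 ± 0.13 (adjusted p = 1.92e-12). Emb, a membrane glycoprotein of the immunoglobulin superfamily, read 5.14, 5.37 and 5.51 in ESC and 9.26, 9.06 and 9.05 in iPS6F, higher by 3.78 ± 0.13. Eif2s3y, a Y-linked translation initiation subunit, was detected on all iPS6F arrays and on no ESC array, and was at least 7.98-fold higher. Baiap2l1, which links membranes to actin, was higher by 3.03 ± 0.11, and the tight junction protein Cldn4 by 2.30 ± 0.10. P4ha1, a subunit of the enzyme that hydroxylates proline in collagen, was higher by 2.67 ± 0.19, Slc25a36, a mitochondrial nucleotide carrier, by 2.61 ± 0.19, and Insig1, which holds back sterol synthesis when sterols are plentiful, by 2.37 ± 0.16. Rnf114, a ubiquitin ligase, Ddit3, a stress-induced transcription factor, Tsc22d1, a leucine zipper protein, and Hnrnpk, an RNA-binding protein, were higher by 2.53, 2.53, 2.50 and 2.44. The same ESC arrays set against iPS4F gave 4.72 for Ipp and 4.08 for Emb, values that share their controls with those above.

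**Figure D1:**
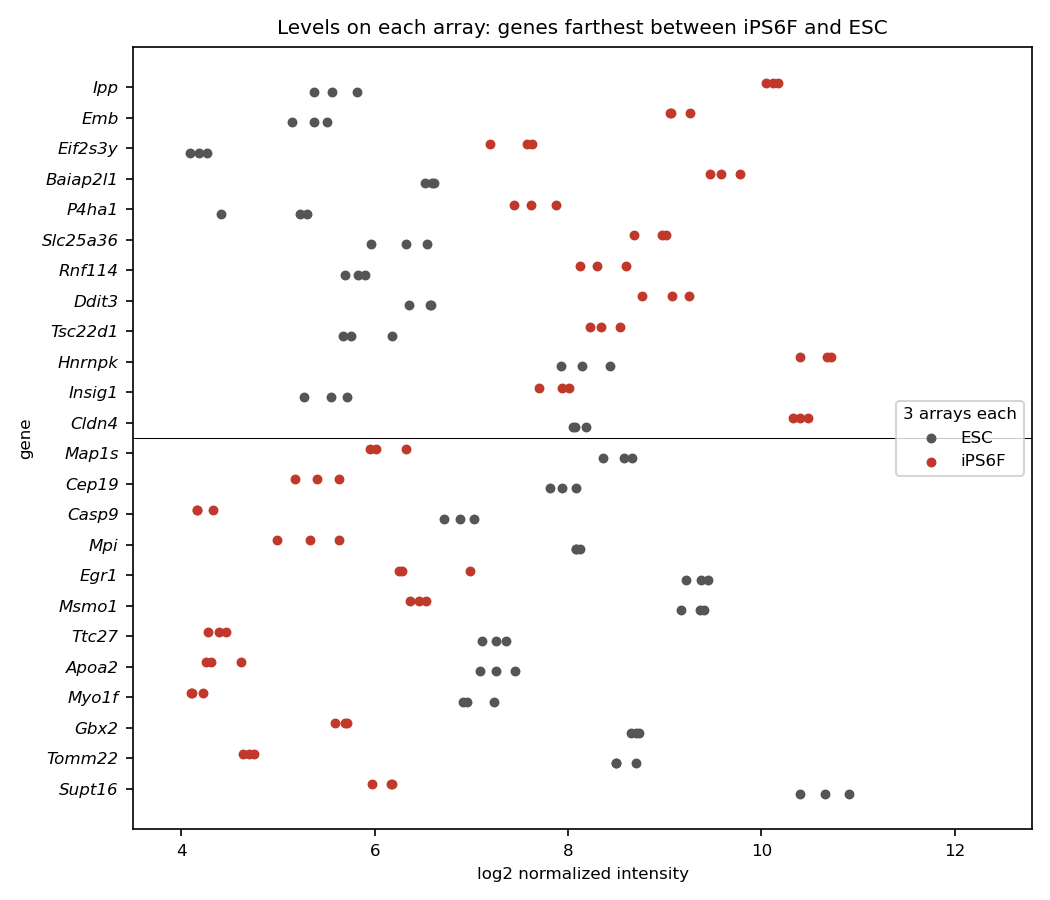
Log2 normalized intensity on each of the 3 ESC (grey) and 3 iPS6F (red) arrays for the 12 genes highest and the 12 lowest in iPS6F. The groups do not overlap for any of them, which the choice of these genes required, and Ipp and Supt16 show the widest gaps, 4.53 and -4.55.

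At the other end, Supt16, a subunit of the FACT complex that helps polymerases through nucleosomes, read 10.40, 10.91 and 10.66 in ESC and 5.97, 6.17 and 6.18 in iPS6F. This difference of -4.55 ± 0.19 came from the brighter probe, and the other probe of Supt16 differed by -0.53. Tomm22, part of the gate for proteins entering mitochondria, stood at 8.50, 8.70 and 8.49 in ESC and at 4.75, 4.63 and 4.69 in iPS6F, lower (-3.87 ± 0.12), and its other probe was not kept. Gbx2, a homeobox factor that promotes self-renewal of mouse ESC, fell from 8.65, 8.70 and 8.73 to 5.58, 5.71 and 5.69, a difference of -3.03 ± 0.10 (adjusted p = 2.32e-12). The arrays of each group lay close together. Myo1f, a myosin of blood cells, was detected on every ESC array and no iPS6F array and was at least 6.22-fold lower. Apoa2, an apolipoprotein, Ttc27, a tetratricopeptide repeat protein, and Msmo1, a demethylating enzyme of cholesterol synthesis, were lower with differences of -2.87, -2.86 and -2.86. Apoa2 and Ttc27 were each detected on 1 of 3 iPS6F arrays. Egr1, an immediate early factor induced by ERK, read 9.22, 9.45 and 9.38 in ESC and 6.25, 6.28 and 6.99 in iPS6F, a difference of -2.84 ± 0.16. Casp9, an apoptosis protease, was undetected on all iPS6F arrays by its brightest probe, which was at least 5.57-fold lower. The remaining genes were Mpi, which interconverts mannose and fructose phosphates (-2.78), the centrosome protein Cep19 (-2.54) and the microtubule protein Map1s (-2.44).

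How far a single probe stands for its gene was examined on all kept probes. Of the 723 genes at least 2-fold apart, 428 had 1 kept probe and could not be checked. Among the 295 with several, all kept probes passed the threshold in the same direction for 159 (53.9%), and probes passed in opposite directions for 20 (6.78%). Over all genes with several kept probes these shares were 17.9% and 7.81%. The 723 genes were chosen for a called probe that is itself counted, so a larger first share was built in. Among all called genes with several kept probes the shares were 35.1% and 13.5%. In 63 genes every kept probe was at least 2-fold apart in the same direction, 37 higher and 26 lower.

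The genes best supported by several probes included the translation elongation factor Eef2, whose 3 kept probes were higher by 2.18 to 2.23, and Hnrnph1, a splicing regulator, whose 5 kept probes were higher by 1.46 to 2.02. Eef2 read 8.96, 9.02 and 9.09 in ESC and 11.55, 10.95 and 11.20 in iPS6F. Rnf114 (2.53 to 2.82), the glycolytic enzyme Pfkp (2.02 to 2.58), Ddit3 (1.96 to 2.53), the phosphatase subunit Ppp1cb (1.70 to 2.16) and the mitochondrial insertase Oxa1l (1.66 to 1.67) followed. Ndrg1, a stress-responsive gene, the formin Diaph1, the small nucleolar RNA Snora65, Erdr1 and Mreg made up the higher group, with smallest probe differences of 1.43 to 1.45. In the lower group, both probes of Apoa2 fell (-2.87 and -2.69), as did both of the immunoproteasome subunit Psmb10 (-2.13 and -2.04). Psmb10 read 9.50, 9.73 and 9.58 in ESC and 7.35, 7.80 and 7.55 in iPS6F. Wdr46, a nucleolar protein, was undetected on all iPS6F arrays and at least 3.32-fold lower. Glrx, which reduces glutathione-bound thiols, had probe differences of -2.46 and -1.80, and the small GTPase Mras had -1.74 and -1.71. Mia, Zc3h4, the transcription elongation factor Tcea2, the testis-enriched chaperone Clgn, Zbtb45, Btbd6 and the sphingosine kinase Sphk2 completed this set, each with differences of -1.45 or below on both kept probes.

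**Figure D2:**
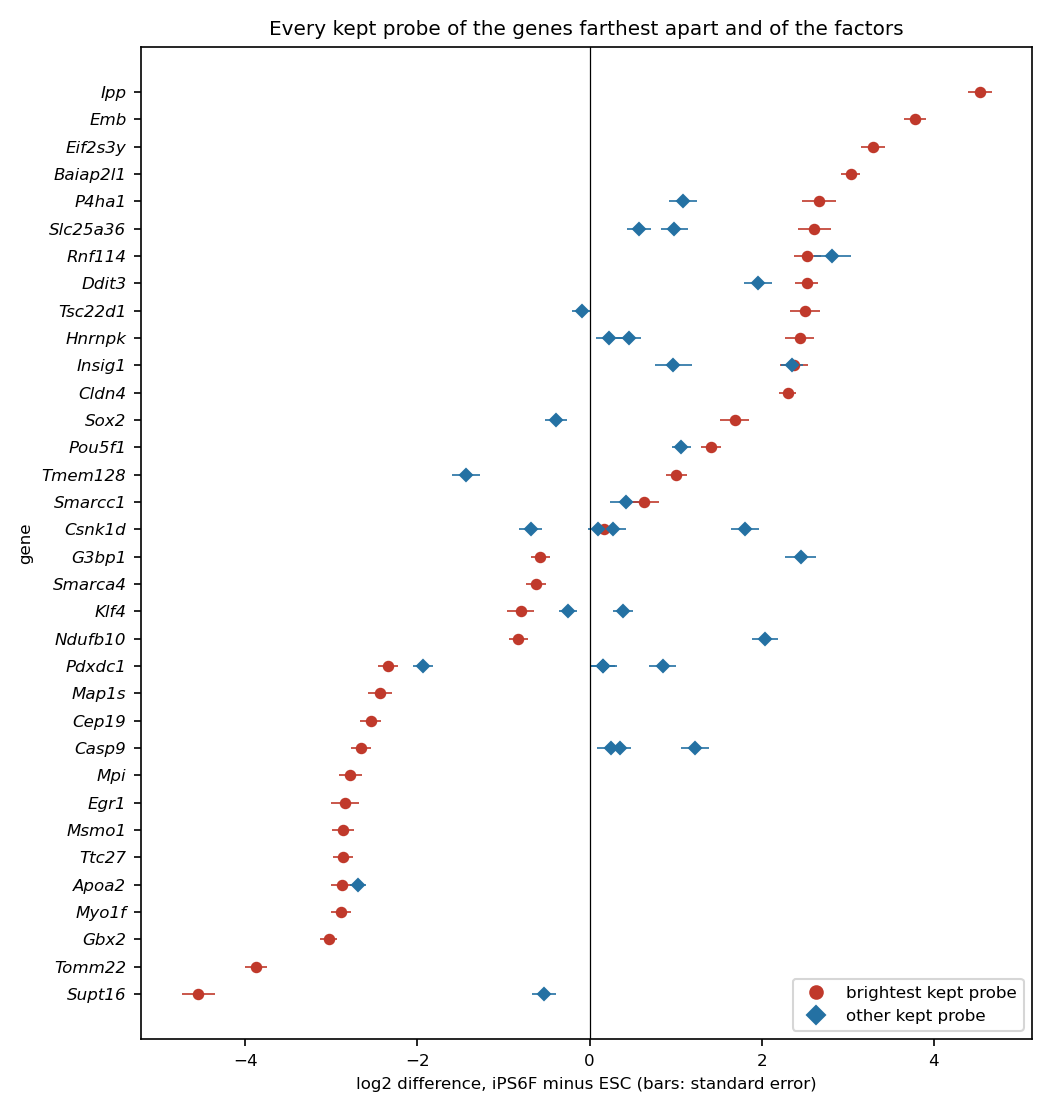
Log2 difference (iPS6F minus ESC, bars show the standard error) of every kept probe of the genes farthest apart, of the factors with a detected probe and of the 6 genes whose probes disagreed most. Red circles mark the brightest kept probe of a gene and blue diamonds its other kept probes. Casp9, Pdxdc1, G3bp1, Ndufb10, Csnk1d, Tmem128, Sox2 and Klf4 have probes on both sides of 0.

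Other genes gave calls that the choice of probe turned round. The brightest of the 4 kept probes of Casp9 fell to the background in iPS6F, while another was higher by 1.23 ± 0.16. G3bp1, a stress granule protein, was lower by its brightest probe (-0.57) and higher by the other (2.45). Ndufb10, a subunit of respiratory complex I, had probe differences of -0.83 and 2.04. Pdxdc1, related to pyridoxal-dependent decarboxylases, had 5 kept probes running from -2.35 to 0.85, Csnk1d, a casein kinase, 5 running from -0.68 to 1.81, and Tmem128 a pair at -1.43 and 1.01. For these genes no single direction is given here.

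The 28 gene lists examined differed in how many members passed the test, and each is set against the 17.8% of all genes higher and 28.0% lower. Under median scaling the counts over all 10096 genes were 1606 higher and 492 lower. List counts given for that scaling are to be read against these, since few genes of any kind were then lower. The largest shares of higher genes were in the p53 and cyclin-dependent kinase inhibitor list, with 15 of 20, the epithelial list, with 14 of 23, and the glycolysis list, with 10 of 17. The largest share of lower genes was in the Nodal and TGF-beta list, with 10 of 16. Against the same ESC arrays, iPS4F had 14, 13 and 12 higher genes in the p53, epithelial and glycolysis lists. In the Nodal list 5 were lower in iPS4F, and over all genes 1795 were higher and 2511 lower. Ribosomal protein genes were the most alike, with 22 of 24 not past the threshold. Their called members were Rps6, higher by 0.33, and Rpl34, lower (-0.49), and the call of Rpl34 ended with median scaling. That of Rps6 ended in the authors' log2 table and when any 1 of the iPS6F arrays, ESC array 2 or ESC array 3 was left out (0.29 to 0.40 over left-out arrays).

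**Figure D3:**
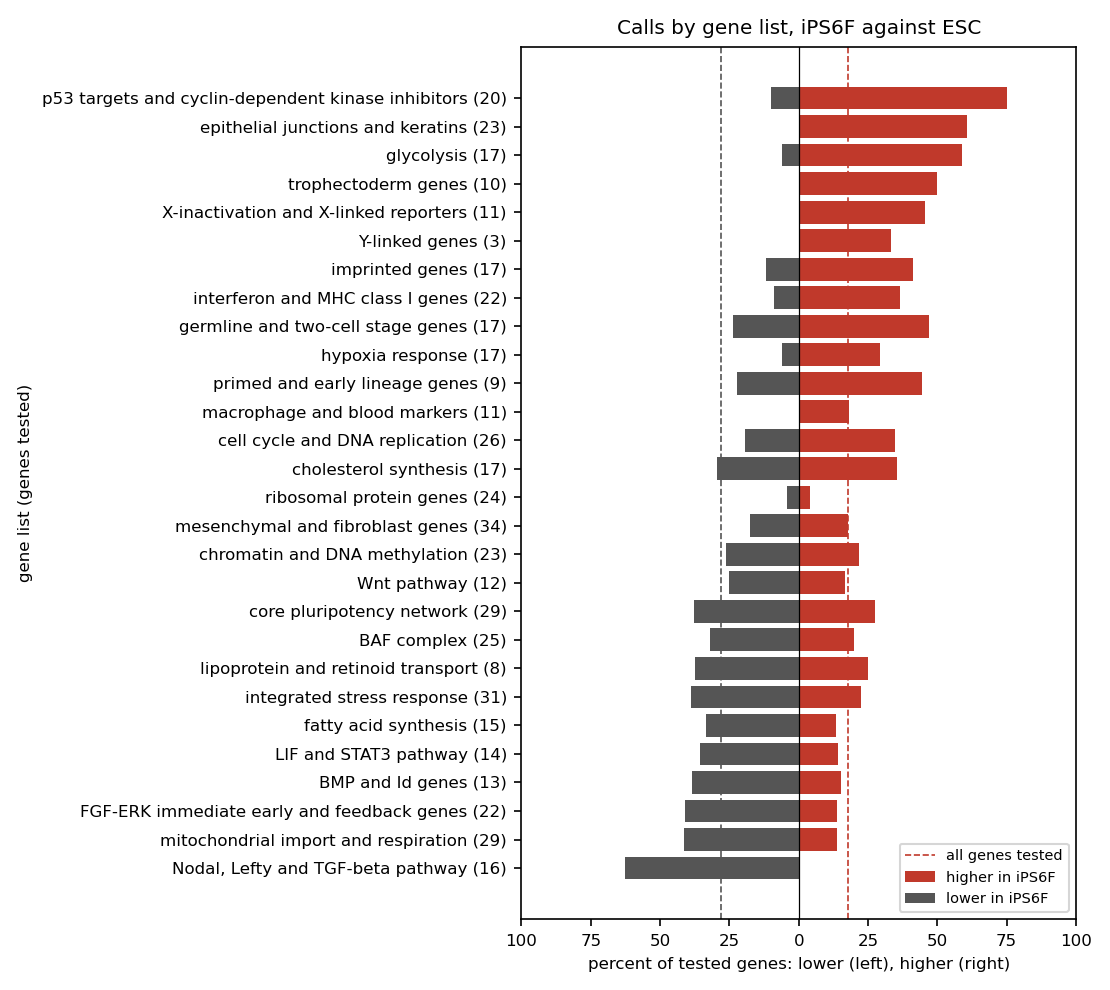
Percent of the tested genes of each list that were higher (red, right) or lower (grey, left) in iPS6F than in ESC, with the number of genes tested in parentheses. Dashed lines give the same shares over all 10096 genes, 17.8% and 28.0%. The p53, epithelial and glycolysis lists reach farthest right and the Nodal list farthest left.

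Genes of the pluripotency network were split. Of 29 tested, 8 were higher and 11 lower, with a median of -0.02 against -0.07 for all genes. With median scaling 7 were higher and 5 lower. Beside Pou5f1 and the brighter probe of Sox2, Lin28a, which blocks maturation of let-7 microRNAs, was higher by 1.56 ± 0.13. The 4 kept probes of Lin28a, however, ran from -0.49 to 1.56. Dppa3, a maternal factor that protects DNA methylation, was higher by 1.01 ± 0.11. On the other side, beside Gbx2, Nr5a2, a nuclear receptor that activates Pou5f1, read 7.39, 6.82 and 7.64 in ESC and 6.12, 5.76 and 5.35 in iPS6F. Both kept probes of Nr5a2 fell (-1.54 and -0.57). Dppa2, an activator of early embryonic genes, was lower (-1.49 ± 0.15).

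Among 9 tested genes of primed and early lineage states, 4 were higher and 2 lower, or 4 and none under median scaling. With 1 array left out, 2 to 4 were higher and 1 to 2 lower. Otx2, a homeobox factor of the transition to the primed state, read 7.87, 7.86 and 7.45 in ESC and 9.64, 9.44 and 9.24 in iPS6F, and its groups did not overlap. It was higher by 1.71 ± 0.13 (adjusted p = 3.83e-08). Pou3f1 and Zic2, transcription factors of early neural and primed cells, were higher by 0.46 ± 0.14 and 0.63 ± 0.14. Nes, a neural intermediate filament, was lower (-0.41 ± 0.16), a call lost under 10 of 17 alternatives, among them median scaling, no detection filter, and leaving out any 1 of the iPS6F arrays or ESC array 2 (-0.54 to -0.21 over left-out arrays). The call of Pou3f1 was lost without iPS6F array 1 (0.38), without ESC array 1 (0.28) and in the authors' log2 table. Fgf5, a marker of the primed state, differed by -0.11 and did not pass the test.

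Of 10 trophectoderm genes, 5 were higher and none was lower (median 0.38). They were Tfap2c, a transcription factor also active in germ cells, with all 3 kept probes higher by 1.13 to 1.46, the simple keratins Krt8 and Krt18, the receptor Fgfr2, whose call ended with median scaling, and Id2. Cdx2 and Elf5, which define the trophectoderm, were not detected on any of the 6 arrays. The other trophectoderm markers, Krt7 and Eomes, were each detected on 2 ESC and 3 iPS6F arrays. Krt7 was higher by 0.52, and Eomes (0.08) did not pass the test. Germline genes gave 8 higher and 4 lower of 17, or 8 and 1 under median scaling. Dazl, an RNA-binding protein of germ cells, was higher by 1.21 ± 0.14, and Tdrd12, a piRNA pathway protein, by 1.07 ± 0.10. Rhox5 was higher by 0.61 ± 0.11, a call lost in the authors' log2 table. Tcstv3, transcribed at the 2-cell stage, was lower (-1.22 ± 0.11).

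Signalling genes differed within each pathway. In the FGF and ERK list, 3 of 22 genes were higher and 9 lower, with 2 and 4 under median scaling. Fgf4, the FGF ligand that pluripotent cells secrete, read 5.19, 5.33 and 5.30 in ESC and 7.49, 7.46 and 7.43 in iPS6F. It was higher by 2.19 ± 0.10 (adjusted p = 2.05e-10). Several genes that ERK activity induces were lower. Dusp6, a phosphatase that inactivates ERK, read 9.05, 9.02 and 9.08 in ESC and 7.33, 7.09 and 7.36 in iPS6F, and both of its kept probes were lower (-1.79 and -0.88). Spred1, an inhibitor of the cascade, was lower (-1.23 ± 0.15), as was Dusp4 (-1.04 ± 0.15), next to Egr1 (-2.84). Fos, however, was higher, by 0.57, and Dusp1 (0.14), Etv5 (-0.09) and Spry4 (-0.27) did not pass the test.

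In the Nodal and TGF-beta list none of 16 genes was higher and 10 were lower, with a median of -0.44 against -0.07 for all genes. With 1 array left out, 7 to 8 were lower and 0 to 1 higher. With median scaling 2 of the 10 calls remained, and the list median was -0.14. With median-scaled arrays also centred on their genes' median, 5 were lower and the list median was -0.35. Lefty1, a secreted Nodal inhibitor and target, read 8.67, 8.72 and 8.79 in ESC and 7.53, 7.60 and 7.36 in iPS6F, lower (-1.23 ± 0.12). Smad3, which carries the signal to the nucleus, was lower on both probes (-0.95 and -0.58). The ligand Nodal was lower by its brightest probe (-0.85 ± 0.11) and higher by the other (0.54), and median scaling ended its call. Tgfbr2, a TGF-beta receptor, was undetected on all iPS6F arrays and at least 1.44-fold lower, a call that median scaling also ended.

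In the BMP list, 2 of 13 genes were higher and 5 lower, or 2 and 2 under median scaling. The ligand Bmp4 read 7.44, 7.27 and 7.24 in ESC and 6.02, 6.03 and 6.09 in iPS6F, with a difference of -1.27 ± 0.11. Id1, a BMP target that blocks lineage factors, fell by 1.52 on the log2 scale (-1.52 ± 0.13). A related inhibitor, Id2, was detected on all iPS6F arrays and no ESC array and was at least 2.04-fold higher. The ligand Bmp7 was higher by 1.17 ± 0.18. Of 14 genes of the LIF and STAT3 list, 2 were higher and 5 lower, with median scaling 1 was higher and none lower, and with 1 array left out 0 to 2 were higher. The 4 largest were Bcl3, Ptpn11, Socs3 and Gab1, with differences of -0.70, -0.57, -0.53 and -0.43, all of which lost their call under that scaling. The LIF receptor Lifr (-0.32) and Stat3 (0.36) did not pass the test. In the Wnt list 2 of 12 were higher and 3 lower, or 1 and 1 under median scaling, and 1 to 3 were higher with 1 array left out. Axin2, the feedback inhibitor that Wnt signals induce, read 5.38, 5.65 and 5.71 in ESC and 4.18, 4.47 and 4.67 in iPS6F, a difference of -1.15 ± 0.13, and the coreceptor Lrp6 was higher by 0.86 ± 0.19. The receptor Fzd5 (-0.71) and the kinase Gsk3b (-0.43) were lower, calls that ended with median scaling.

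**Figure D4:**
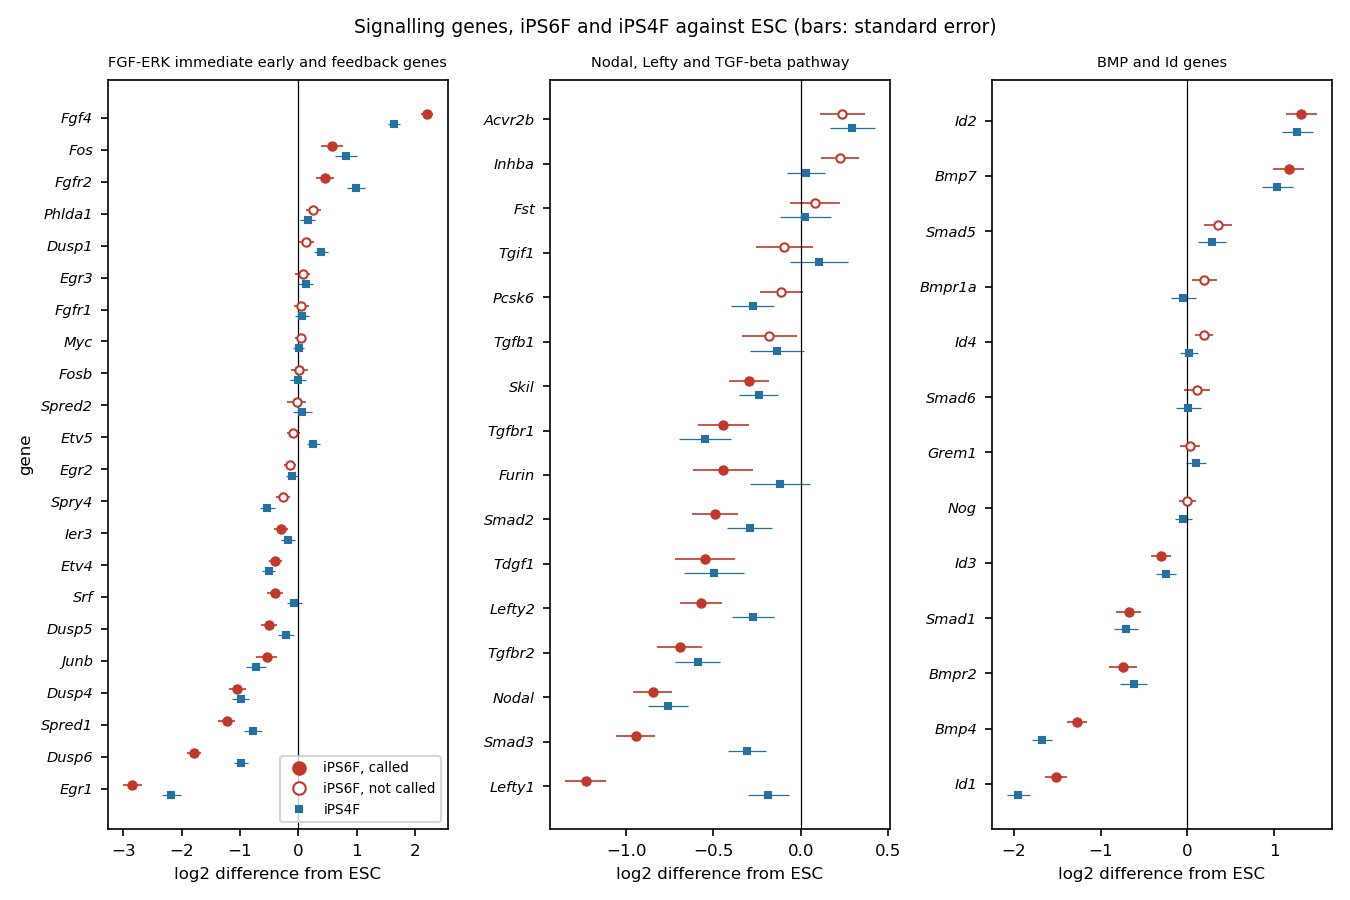
Log2 difference from ESC of each tested gene of the FGF-ERK, Nodal and BMP lists, with standard errors. Red circles are iPS6F, filled where the gene passed the threshold, and blue squares are iPS4F, which shares the ESC arrays. Fgf4 stands highest (2.19) and Egr1 lowest (-2.84), and Lefty1 lies at -1.23 in iPS6F and -0.19 in iPS4F.

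Of 23 epithelial genes tested, 14 were higher and none lower, with a median of 0.63 (with 1 array left out, 13 to 15 and 0 to 1), and 15 were higher and none lower with median scaling. Cldn4 read 8.07, 8.05 and 8.19 in ESC and 10.48, 10.33 and 10.40 in iPS6F. Cldn6, another claudin of tight junctions, was higher by 1.38 ± 0.12. Grhl2, a transcription factor of epithelia, was higher by 1.53 ± 0.11, and the keratin genes Krt18 and Krt8 by 1.39 ± 0.13 and 0.63 ± 0.13. Cdh1, the E-cadherin that holds these cells together, differed by -0.03 ± 0.11 and did not pass the test. Of 34 mesenchymal genes, 6 were higher, 6 lower and 22 not past the threshold, and none was lower with median scaling. Fn1, fibronectin, read 7.15, 6.73 and 6.80 in ESC and 8.97, 8.65 and 8.82 in iPS6F, higher by 1.92 ± 0.14, and 3 of its 4 kept probes were higher. Sparc, a matrix protein, was higher by 1.21 ± 0.11. Zeb1, a repressor of Cdh1, was lower (-0.93 ± 0.14), a call that ended with median scaling. In the fibroblasts Fn1 stood at 11.04 and Sparc at 13.57, and the higher fibroblast marker sum given above moved in the same direction. Its part in these values was not tested. The macrophage list gave 2 of 11 higher, Pecam1 by 2.02 ± 0.14, which pluripotent cells also express, and Laptm5 by 0.61 ± 0.12. The defining macrophage genes Csf1r and C1qb were detected on none of the 6 arrays. Lyz2 was detected on 1 iPS6F array (0.36, not past the threshold), C1qa on 1 ESC array, and Cd68 had no probe.

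Glycolytic genes were mostly higher. Of 17 tested, 10 were higher and 1 lower (median 0.43), with 10 and none under median scaling. Pfkp, which commits sugar to glycolysis, read 7.85, 7.61 and 7.56 in ESC and 9.91, 9.44 and 9.72 in iPS6F. Hk1, the hexokinase that traps glucose in the cell, was undetected in ESC and at least 2.55-fold higher in iPS6F. Aldoc, an aldolase, was higher by 1.30 ± 0.15, and the X-linked Pgk1, the first ATP-yielding enzyme of the pathway, by 1.29 ± 0.11 with both of its probes higher. The glucose transporters Slc2a1 (0.22) and Slc2a3 (0.30) and Gapdh (0.11) did not pass the test. Of 17 hypoxia genes, 5 were higher and 1 lower. With median scaling 4 were higher and none lower. Beside P4ha1, the largest differences were in Plod2 and Ndrg1, the latter higher by 1.48 ± 0.11. Plod2, a lysyl hydroxylase, was higher by 1.95 ± 0.11 on 1 of its 2 kept probes, and P4ha2, a relative of P4ha1, by 0.64 ± 0.12. Vegfa (0.35), Egln3 (0.30) and Bnip3l (0.31), textbook targets of the hypoxia factor, did not pass the test.

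Genes of cholesterol synthesis were split, with 6 of 17 higher and 5 lower, or 5 and 1 under median scaling. Insig1 read 5.72, 5.27 and 5.55 in ESC and 8.01, 7.70 and 7.93 in iPS6F, and its 3 kept probes were higher by 0.97 to 2.37. Cyp51, which removes a methyl group from lanosterol, was higher by 1.33 ± 0.16, and Dhcr7, which completes cholesterol, by 1.02 ± 0.16. Msmo1, the demethylase that acts after Cyp51, read 9.17, 9.36 and 9.41 in ESC and 6.53, 6.37 and 6.45 in iPS6F. Cyp51 and Msmo1 thus lay on opposite sides of ESC. In the fatty acid list 2 of 15 genes were higher and 5 lower, or 2 and 2 under median scaling. Acss2, which makes acetyl-CoA from acetate, read 7.37, 7.35 and 7.59 in ESC and 5.18, 5.52 and 5.52 in iPS6F, a difference of -2.04 ± 0.13. Mlxipl, a glucose-sensing transcription factor, was lower on both probes (-1.37 and -0.29). Me1, the malic enzyme that supplies NADPH, was undetected in ESC and at least 1.78-fold higher. Acsl4 was lower (-0.78), a call that median scaling ended. Of 8 lipoprotein and retinoid genes, 2 were higher and 3 lower, or 1 and 2 under median scaling, and 1 to 2 were higher with 1 array left out. Apoa2 fell to the background on 2 of 3 iPS6F arrays, Crabp1, which binds retinoic acid, was lower (-1.39 ± 0.14), and Apoe was higher by 0.94 ± 0.13.

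**Figure D5:**
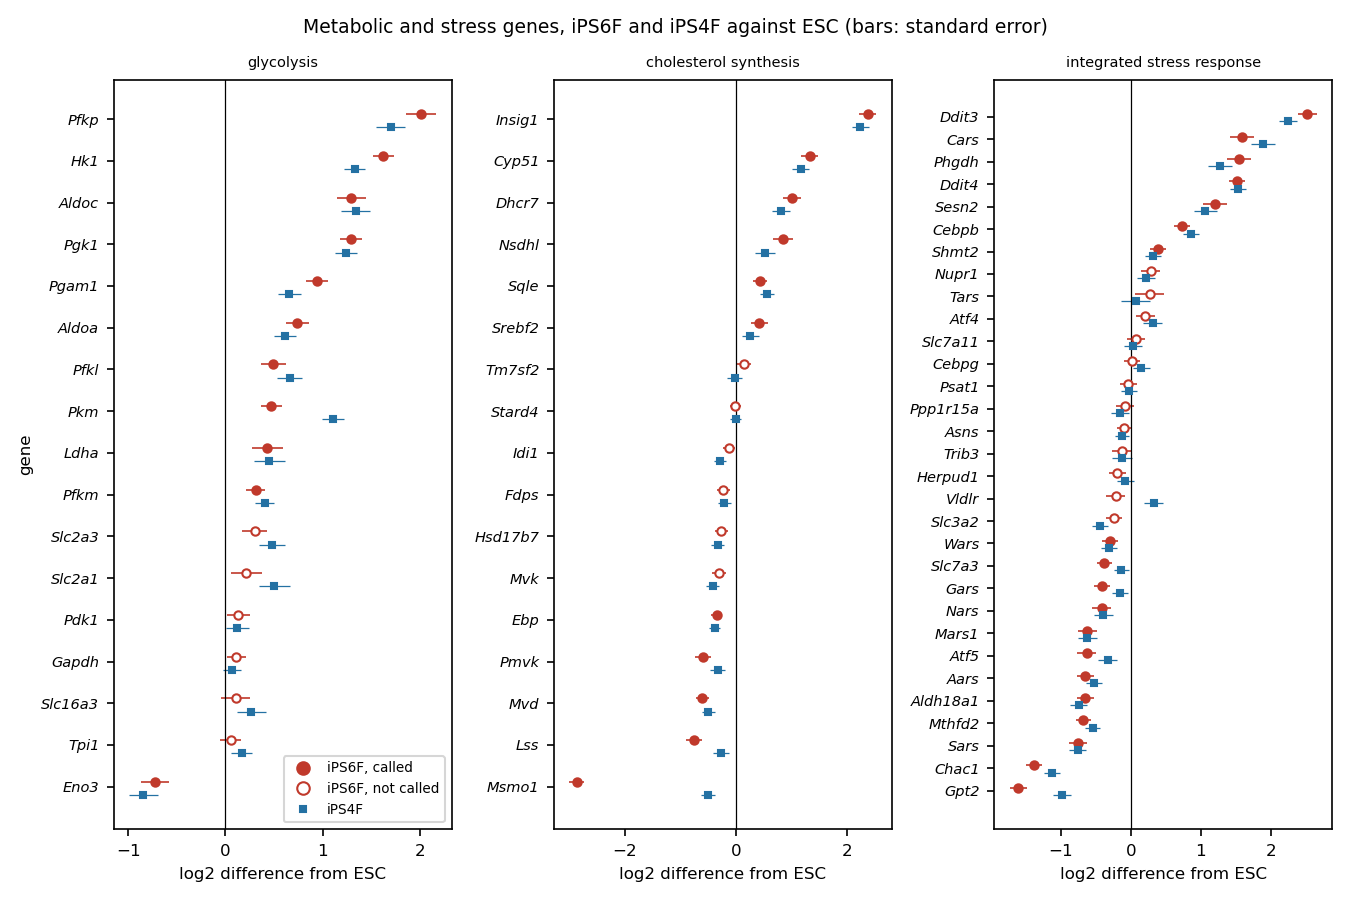
Log2 difference from ESC of each tested gene of the glycolysis, cholesterol synthesis and integrated stress response lists, with standard errors. Red circles are iPS6F, filled where the gene passed the threshold, and blue squares are iPS4F, which shares the ESC arrays. Msmo1 lies at -2.86 in iPS6F and -0.50 in iPS4F, and Ddit3 at 2.53 and 2.25.

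The integrated stress response, in which the factor Atf4 raises amino acid synthesis, transport and tRNA charging, was also divided. Of 31 genes, 7 were higher and 12 lower, and with median scaling 7 were higher and 2 lower. Ddit3 read 6.58, 6.57 and 6.36 in ESC and 8.76, 9.07 and 9.25 in iPS6F, with both probes higher. Cars, which charges tRNA with cysteine, was higher by 1.59 ± 0.17 on 1 of 2 kept probes, Phgdh, the entry enzyme of serine synthesis, by 1.55 ± 0.17, and Sesn2, which restrains the growth kinase mTORC1, by 1.20 ± 0.17. Gpt2, a mitochondrial transaminase, read 7.50, 7.55 and 7.59 in ESC and 5.82, 6.10 and 5.88 in iPS6F, a difference of -1.61 ± 0.13. Chac1, which degrades glutathione, was lower (-1.38 ± 0.12). Atf4 itself (0.21) and its targets Asns (-0.10) and Trib3 (-0.13) did not pass the test.

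The promoters of these genes were searched because many genes of this response carry a known regulatory sequence. The motif was chosen after the values of the list were seen. The amino acid response element, searched as TGATGNAA on both strands in the 250 bases before each start site, was in 9 of 27 genes of the list that had a promoter (33.3%). It was in 1056 of all 27025 genes with a promoter (3.91%). Of the list, 0 of 6 higher genes, 3 of 9 lower genes and 6 of 12 genes not called held it. A match is a description and not a bound site. The stretches around the match are shown for the lower genes Chac1, Aars and Gars, the last 2 being alanine and glycine tRNA synthetases, and for Asns, asparagine synthetase. They are RefSeq sequences on GRCm38.p6, 5′ to 3′ along the gene, with the match in capitals, from chr2:119351019-119351086 (+), chr8:111033700-111033767 (+), chr6:55037941-55038000 (+) and chr6:7693210-7693262 (-).
Chac1: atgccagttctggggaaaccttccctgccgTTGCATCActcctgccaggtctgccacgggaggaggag
Aars: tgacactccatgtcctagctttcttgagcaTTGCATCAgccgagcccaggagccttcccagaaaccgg
Gars: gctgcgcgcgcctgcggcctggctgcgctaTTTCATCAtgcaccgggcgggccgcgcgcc
Asns: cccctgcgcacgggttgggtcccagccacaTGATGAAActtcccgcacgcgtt
Aars differed by -0.65 ± 0.12 and Gars by -0.41 ± 0.11, and both calls ended with median scaling, while that of Chac1 held (-1.08). Aars lies on chromosome 8, where the median difference was -0.41. Asns read 11.25, 11.32 and 11.40 in ESC and 11.32, 11.11 and 11.25 in iPS6F, so its groups overlapped. The sterol regulatory element, searched as TCACNCCAC in the same way, was in none of 14 cholesterol genes and in 331 of 27025 genes with a promoter (1.23%). With so rare a match and so few genes, and with variant sequences not searched, this does not show that the cholesterol genes lack the element.

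Most genes of the p53 and cyclin-dependent kinase inhibitor list were higher. Of 20 tested, 15 were higher and 2 lower (median 0.56), with 14 and none under median scaling, and leaving out 1 array gave 0 to 2 lower. Cdkn2b, an inhibitor of Cdk4 and Cdk6, read 4.66, 4.62 and 4.77 in ESC and 6.35, 6.46 and 6.39 in iPS6F, higher by 1.71 ± 0.11. The apoptosis activator Pmaip1 was higher by 0.98 ± 0.10, and Trp53inp1 by 0.79 ± 0.14 with both probes higher. Cdkn1a, the p53 target best known for arresting the cycle, was higher by 0.50. Of the other inhibitors, Cdkn2a (0.78) and Cdkn1c (0.66) were higher, while Cdkn1b (0.28), Cdkn2c (-0.04) and Cdkn2d (0.23) did not pass the test. Of 26 cell cycle genes, 9 were higher and 5 lower, or 8 and none under median scaling, and 2 to 5 were lower with 1 array left out. Mcm3, part of the replicative helicase, was higher by 1.25 ± 0.14, and the mitotic kinase Aurkb by 0.82 ± 0.12. Top2a, which untangles DNA, was higher on 1 of its 3 kept probes (0.86), and Cdk4 had probes at 1.03 and -0.62, past the threshold in opposite directions.

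In the BAF complex, 5 of 25 genes were higher and 8 lower, none by as much as 2-fold. With median scaling 3 were higher and none lower, and with 1 array left out 3 to 5 were higher. Brd7, a subunit of the PBAF form, was lower (-0.78 ± 0.11), as was Bcl11b (-0.71 ± 0.18), calls that ended with that scaling along with that of Smarca4. Among 23 genes of chromatin and DNA methylation, 5 were higher and 6 lower, or 5 and 1 under median scaling. Ezh2, the methyltransferase of Polycomb complex PRC2, read 8.75, 8.30 and 8.58 in ESC and 10.01, 10.16 and 9.73 in iPS6F, higher by 1.43 ± 0.15, but its other kept probe differed by 0.06. The demethylase Kdm4c was higher by 0.72 ± 0.12, and Kdm2b, which recruits Polycomb to unmethylated DNA, had probes at -0.85, 0.55 and 0.87. The DNA methyltransferase Dnmt1 (-0.15) did not pass the test.

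Of 17 imprinted genes, 7 were higher and 2 lower (median 0.38). Gnas, a G protein subunit, was higher by 1.69 ± 0.16 with all 4 kept probes higher, and Igf2, a fetal growth factor, by 1.14 ± 0.16. Peg10 was higher by 0.73 ± 0.14. Ndn, expressed from the paternal copy, read 6.63, 6.76 and 6.53 in ESC and 5.43, 4.85 and 5.48 in iPS6F, lower (-1.38 ± 0.14). Of 11 X-linked genes examined, 5 were higher and none lower, led by Xlr4a (2.04 ± 0.11) and Xlr5a (1.49 ± 0.14). Apart from Eif2s3y, the Y-linked Zfy1 (0.23 ± 0.11) and Uty (-0.04) did not pass the test. In the authors' log2 table Zfy1 was past the threshold, at 0.99 (limma adjusted p = 0.0391). Of 22 interferon and MHC class I genes, 8 were higher and 2 lower, and with median scaling 4 were higher and none lower. H2-D1, a class I heavy chain, was higher by 0.88 ± 0.12, with its 3 kept probes running from -0.55 to 0.88. Stat2, which carries interferon signals, was higher by 0.75 ± 0.15, and Tapbp, which loads class I molecules, was undetected in ESC and at least 1.46-fold higher, a call lost when median-scaled arrays were centred on their genes' median (adjusted p = 0.0567). Irf3, a viral-sensing factor, was lower (-0.65), a call that median scaling ended.

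Of 29 genes of mitochondrial import and respiration, 4 were higher and 12 lower, with median scaling 2 were higher and 1 lower, and with 1 array left out 1 to 5 were higher. Tomm22 aside, the small import chaperones Timm8a1 and Timm10 were lower (-0.89 ± 0.14 and -0.81 ± 0.14), calls that ended with that scaling. Tomm40, the channel that Tomm22 serves, was higher by 1.00 ± 0.14.

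Lower genes were unevenly spread over the chromosomes. Of 540 genes tested on chromosome 8, 288 were lower and 35 higher, and 88 were at least 2-fold lower, which is 16.3% against 3.16% elsewhere. The median difference was -0.41 on chromosome 8 and -0.06 over the others, and the next lowest autosome median was -0.13, on chromosome 12. Among the genes named above, Zfp42, Gab1, Aars, Brd7, Dusp4, Psmb10, Clgn, Map1s, Gpt2 and Msmo1, all lower, lie on chromosome 8. Cdh1, which did not pass the test, lies there too. Relative to the same ESC arrays, the chromosome 8 median was -0.38 in iPS4F and -0.41 in MEF. Set against MEF, the iPS6F median on chromosome 8 was 0.02, and over the other chromosomes 0.03. The cause of the chromosome 8 shift was not tested.

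Set directly against iPS4F, 117 genes differed (1.16%), 40 higher and 77 lower in iPS6F, of which 93 also differed from ESC. This count depended on the processing, with 42 genes under median scaling, 47 in the authors' log2 table, 46 when only these groups were fitted, and 44 (without iPS4F array 2) to 193 (without iPS4F array 3) when 1 array was left out. Among the genes named above, the widest gap was in Msmo1. It read 9.17 to 9.41 in ESC, 8.82 ± 0.23 (SD, n = 3) in iPS4F and 6.45 ± 0.08 in iPS6F, so the iPS6F minus iPS4F difference was -2.37 ± 0.13 (adjusted p = 3.54e-08). Cep19 (-1.55), Igf2 (-1.13), Lefty1 (-1.04) and Dusp6 (-0.81) were also lower in iPS6F than in iPS4F.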

How the data were processed

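Illumina mouse bead arrays of 12 samples (4 groups of 3) were grouped by title. Per the labels' protocols, total RNA was amplified into biotin-labelled cRNA. The deposited table gives an intensity per probe and array (64.1 to 21025), not normalized, per the file headers. Beside it the deposited table gives a detection p-value. The authors' other table holds log2 values of the same arrays, which share one distribution and rank probes as the intensity does (Spearman 1). Its offset and order of steps are not stated. The submitters' processing notes list BeadStudio 3.2, RMA and lumi, without their roles.

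Intensities were background-corrected, given an offset of 16, quantile-normalized and put on a log2 scale with neqc of limma 3.58.1 in R 4.3.3. The offset lowers the folds of dim probes. A probe was kept if detected (p under 0.05) on all 3 arrays of a group, which 17563 of 45281 probes were. Of all probes, 34885 had 1 symbol in the platform annotation, whose names can be old, 18 had several and 10378 none. Only the first kind named genes. Each of 10096 genes was read from the brightest of its kept probes (by mean over arrays), and 3648 had more than 1. One limma model (lmFit, eBayes) with a mean per group was fitted to all 12 arrays, and p-values were adjusted by Benjamini-Hochberg over all genes, or over all kept probes for probe calls, with a threshold of 0.05. "At least N-fold" sets the detected group against, per array, the higher of the probe's own value and the lowest detected value. In iPS6F, Mras and Pdxdc1 were detected on 1 of 3 arrays and Axin2 and Clgn on 2, and in ESC, P4ha1, Grhl2, Lrp6, Zic2, Diaph1, Thy1 and Bgn on 2.

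The members and the 28 lists (682 entries, 62 with no named probe, 515 tested) were chosen with earlier results of these data known. Named genes were the 12 highest and 12 lowest with groups that did not overlap, the 6 factors, up to 4 of largest change per list (2 where fewer than 2 passed), the 12 higher and 12 lower genes whose kept probes all passed one way, ranked by their smallest probe difference, and the 6 with the widest gap between probes called in opposite directions. Any other gene named was a marker or was chosen after its values were seen. Same-numbered iPS6F and ESC arrays did not deviate together (correlations -0.03 to 0.03), so the numbers were not used as pairs. Alternatives changed the scaling, background, filter, probe summary, arrays fitted, moderation and block, and left out arrays or chromosomes. Promoters came from RefSeq (GRCm38.p6).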

Additional observations from a re-analysis of the deposited data

Results flagged for a closer look

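For 13 of the named genes, the difference from ESC itself differed between the iPS groups, by the limma test of iPS6F minus iPS4F. Lower in iPS6F were Msmo1 (-2.37 ± 0.13 SE), Cep19 (-1.55 ± 0.12), Igf2 (-1.13 ± 0.16), Lefty1 (-1.04 ± 0.12), Dusp6 (-0.81 ± 0.12), Erdr1 (-0.68 ± 0.16), Smad3 (-0.64 ± 0.11), Gpt2 (-0.63 ± 0.13), Tcea2 (-0.51 ± 0.11), Grhl2 (-0.50 ± 0.11) and Tdrd12 (-0.45 ± 0.10). Higher in iPS6F were Fgf4 (0.56 ± 0.10) and Sparc (0.51 ± 0.11). For Msmo1 and Lefty1 the iPS4F value lay below ESC but nearer to it (-0.50 and -0.19) than the iPS6F value (-2.86 and -1.23). For Igf2 it was iPS4F that stood farther from ESC, at 2.27 against 1.14.

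Msmo1, Cep19, Lefty1 and Dusp6 passed the threshold under every alternative tried. Igf2 lost its call with the authors' log2 table, and Smad3 with the mean of its probes and without iPS4F array 2. Fgf4 lost its call with either median scaling, with the authors' log2 table and without iPS4F array 1. Erdr1, Gpt2, Tcea2, Grhl2, Tdrd12 and Sparc each lost theirs under 7 or more alternatives. The labels do not say whether each iPS group was 1 clone, so a difference between clones and a difference between factor sets cannot be told apart.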

How the results depend on the processing

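With median scaling 2098 genes were called, 492 of them lower, with 607 at least 2-fold higher and 156 at least 2-fold lower; 4404 probes were called, 760 of them lower, and 42 genes differed between the iPS groups. Without background correction 106 genes were at least 2-fold higher and 98 lower. With the authors' log2 table these were 904 and 1214, and 47 genes differed between the iPS groups. With a detection p under 0.01 on all 12 arrays, which tests fewer genes and probes, 1145 genes were higher, 197 at least 2-fold, and 5003 probes were called, 2096 of them higher. Fitting only the groups compared gave 46 genes between the iPS groups, and leaving out 1 array gave 44 (without iPS4F array 2) to 193 (without iPS4F array 3), against 117. Between iPS6F and ESC, leaving out 1 array changed no count over all genes or all probes by over 1.5 times. Counts over the lists moved more. Higher mitochondrial genes went from 4 to 1 without ESC array 3, and to 2 without ESC array 2 or iPS6F array 3. Lower cell cycle genes went from 5 to 2 without ESC array 3, and to 3 without ESC array 2 or iPS6F array 2. Higher BAF genes went from 5 to 3 without iPS6F array 2 or 3 or ESC array 2 or 3. Higher LIF genes went from 2 to 0 without iPS6F array 2 or 3 or ESC array 1, and to 1 without iPS6F array 1 or ESC array 2. Higher primed genes went from 4 to 2 without ESC array 1, and lower ones from 2 to 1 when any 1 of the iPS6F arrays or ESC array 2 was left out. Lower p53 genes went from 2 to 0 without iPS6F array 1 or 2, and to 1 without iPS6F array 3 or ESC array 2 or 3. Higher genes went from 2 to 1 in the Wnt list without iPS6F array 2 or ESC array 2, and in the lipoprotein list without iPS6F array 2 or 3 or ESC array 1. Of the ribosomal genes, none was higher when any 1 of the iPS6F arrays, ESC array 2 or ESC array 3 was left out, and 2 were lower without iPS6F array 3. A Nodal gene was higher without iPS6F array 1 or ESC array 3, and an epithelial gene was lower without iPS6F array 1 or 2.

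The log2 difference of Myc turned to -0.16 with centred median scaling and ran from -0.000983 to 0.0874 over left-out arrays. Pdxdc1 turned to 0.36 with the authors' log2 table and 0.16 with the stricter filter. With the mean of a gene's kept probes Tmem128 turned to -0.21, G3bp1 to 0.94, Ndufb10 to 0.61 and Kdm2b to 0.19, and Cdk4, Top2a, Gsk3b, Irf3, Nodal and Casp9 lost their calls. Of 142 named genes 23 lost their call with median scaling and none turned. With centred median scaling 2 lost their call and 1 turned. The array number as a replicate block gave 4645 called genes, against 4625, and changed the call of no named gene between iPS6F and ESC. The cause of these changes was not tested, beyond the choice of probe and the number of features tested. The offset limits the folds of dim genes.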
